A study of Mus musculus with 6 samples.

Results

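The genes described here are 10 genes that move or bind zinc in the cell: the importers Slc39a1, Slc39a4, Slc39a5, Slc39a8 and Slc39a14, the exporters Slc30a1 and Slc30a10, the metallothioneins Mt1 and Mt2, and the transcription factor gene Mtf1. They were taken by gene symbol from a table of 20107 genes, all 10 were found, and all 10 had enough counts to enter the fit over 14896 genes. The genes were selected on their counts in the HFHC and Chow livers, that is, with the diet difference known. That difference is therefore given below as a description, and test results are read only for genes outside the list.

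The samples were whole livers of 6 wild type male C57BL/6N mice (Envigo) aged 16 weeks, all littermates, and the labels name no transgene or engineered allele for either group. The HFHC group (3 mice, replicates 1, 2 and 3) had free access for 8 weeks, starting at 8 weeks of age, to a fructose-containing food rich in fat and calories together with a high-fructose drink, and the Chow group (3 mice, replicates 7, 8 and 9) stayed on chow. Each mouse gave 1 library of rRNA-depleted, strand-marked total RNA. The comparison of HFHC with Chow addresses how the regimen changes liver gene expression.

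Zinc enters the cytosol through the Slc39a (ZIP) family and leaves it, toward the outside or into organelles, through the Slc30a (ZnT) family. Metallothioneins are small cysteine-rich proteins that hold zinc and copper, and Mtf1 encodes the zinc-sensing factor that binds metal response elements and switches on the metallothionein genes and Slc30a1. In the liver, Slc39a14 and Slc39a8 also import manganese and iron, and Slc30a10 exports manganese into bile. Hepatocytes are known to transcribe metallothionein genes in response to zinc, glucocorticoids and interleukin 6, and Slc39a14 in response to interleukin 6.

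The promoter windows of Mt1, Mt2 and Slc30a1 are shown because these are the classical targets of the Mtf1 product and because Mt1 and Mt2 moved together over the libraries. Each runs 5′ to 3′ along the gene, from 250 bases before the RefSeq start to 50 after it (RefSeq, GRCm38.p6, plus strand). Capitals mark matches to the core of the metal response element, searched as TGCACNC and TGCGCNC on either strand, so that a match on the opposite strand appears as its reverse complement. The windows are chr8:94178839-94179138 for Mt1, chr8:94172368-94172667 for Mt2 and chr1:191906531-191906830 for Slc30a1.
Mt1: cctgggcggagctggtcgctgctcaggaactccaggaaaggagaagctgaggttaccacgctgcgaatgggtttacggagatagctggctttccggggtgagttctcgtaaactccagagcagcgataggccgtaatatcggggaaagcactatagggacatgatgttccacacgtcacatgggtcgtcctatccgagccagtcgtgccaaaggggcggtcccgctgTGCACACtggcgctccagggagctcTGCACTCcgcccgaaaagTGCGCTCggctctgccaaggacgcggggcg
Mt2: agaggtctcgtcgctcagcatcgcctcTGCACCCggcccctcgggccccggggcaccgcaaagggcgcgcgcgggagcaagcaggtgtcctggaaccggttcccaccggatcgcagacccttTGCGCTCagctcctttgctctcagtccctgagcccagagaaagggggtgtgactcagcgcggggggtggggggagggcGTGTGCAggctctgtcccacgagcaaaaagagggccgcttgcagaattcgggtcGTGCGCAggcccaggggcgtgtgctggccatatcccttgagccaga
Slc30a1: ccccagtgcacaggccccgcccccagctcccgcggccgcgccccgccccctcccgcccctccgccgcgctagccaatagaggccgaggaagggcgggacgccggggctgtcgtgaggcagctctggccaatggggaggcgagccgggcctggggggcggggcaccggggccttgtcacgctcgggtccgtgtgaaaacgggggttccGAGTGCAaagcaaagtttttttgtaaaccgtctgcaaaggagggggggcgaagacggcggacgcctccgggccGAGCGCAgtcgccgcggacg

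Mt2 held 4 matches, Mt1 held 3 and Slc30a1 held 2. The first of the 3 in Mt1 begins 23 bases before the RefSeq start, and the others begin at bases 3 and 21 counted from it. Which start the Mt1 transcripts of these livers use was not examined, so these matches may lie before it. Bases beyond the end of the window were not searched. Of 32851 promoter windows of this length, 25.7% held at least 1 match, 7.11% at least 2, 1.97% at least 3 and 0.517% at least 4. RefSeq windows were found for 8 of the 10 genes, not for Slc39a4 and Slc39a14. Slc30a10 held 3 matches, of which 2 overlap on opposite strands. Slc39a5 and Slc39a8 have 2 windows each, of which 1 held a single match. None was found in the windows of Slc39a1 and Mtf1. A match describes these letters and does not show that the factor binds there.

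Libraries held 30096409 to 30871297 counts for HFHC and 26767416 to 27339613 for Chow, so that a single count was worth 0.0318 to 0.0379 CPM, the unit of level used here (counts scaled to the effective library size). The detection floor, 3 counts, was worth 0.0954 to 0.114 CPM. Means carry the SD over the 3 livers of a diet (n = 3). Each log2 fold change sets HFHC against Chow and carries the standard error (SE) of the edgeR fit. Chow replicate 8 stood apart from the other Chow libraries on the second principal component (-30.4 against 11.2 and 11.9). Hepatocyte markers dominated: 7 genes including Alb together held 79368 to 82854 CPM on HFHC against 71617 to 90374 CPM on Chow, and Cps1 among them was lower in HFHC. The summed markers of Kupffer, stellate, sinusoidal endothelial and cholangiocyte cells each had ranges that overlapped between diets. For Kupffer cells the overlap was slight, with 249.5 to 301.7 CPM on HFHC against 209.3 to 249.98 CPM on Chow, and none of the 7 markers was called. Of 5 red blood cell markers 1, Hba-a1, was called higher in HFHC. Bulk tissue cannot separate fewer cells of a type from less RNA per cell.

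Slc39a4 encodes ZIP4, the zinc importer of the gut lining whose human counterpart is mutated in the inherited zinc deficiency acrodermatitis enteropathica. It lies on chromosome 15 at 76612383 to 76617384 (minus strand; all gene positions are GENCODE M21 on GRCm38). Slc39a4 stood at 9.77, 7.24 and 7.55 CPM in HFHC replicates 1, 2 and 3, and at 39.8, 48.1 and 39.0 CPM in Chow replicates 7, 8 and 9. All 3 HFHC livers were low, and the lowest Chow liver was still 3.99 times the highest HFHC liver. The means were 8.18 ± 1.38 and 42.3 ± 5.05 CPM, a log2 fold change of -2.37 ± 0.14, or a 5.17-fold lower level. Leaving out each library in turn gave -2.51 to -2.26. The gene had 758 counts in the 3 HFHC livers and 3411 in the 3 Chow livers, all close to whole numbers, and no other annotated gene shares its exons.

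Because Slc39a4 is best known from the intestine, markers of intestinal epithelium were read beside it. Of 8 such markers, 5 had no entry by symbol among the 20107 genes, and the rest were Fabp2, Vil1 and Muc2. Vil1 had 17 counts over all 6 libraries and Muc2 had 6, both near the floor. Fabp2, which hepatocytes also express, was higher in HFHC. The summed markers, almost all Fabp2, ran from 112 to 132 CPM in HFHC and from 43.2 to 45.8 CPM in Chow. Vil1 went the other way, with 0.0318 to 0.0961 CPM in HFHC and 0.109 to 0.152 CPM in Chow. Muc2 ran from 0 to 0.0640 CPM in HFHC and from 0 to 0.109 CPM in Chow. The part of intestinal cells in the Slc39a4 values was not tested.

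**Figure D1:**
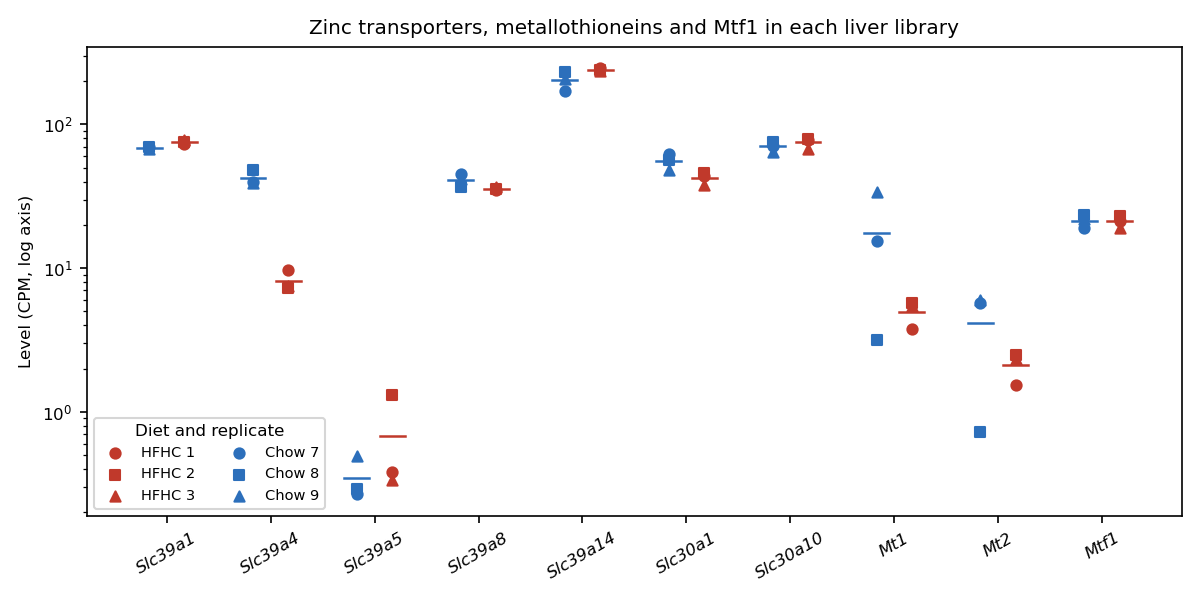
Level of each of the 10 genes in CPM on a log axis, with 1 point per library (Chow in blue, HFHC in red; shapes name the replicate and pair nothing) and a bar at each diet's mean. Slc39a4 is separated between diets by the widest gap, Mt1 and Mt2 spread most within Chow, and Chow replicate 8 is below every HFHC library for Mt1 and Mt2.

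The remaining importers differed far less between diets. Slc39a14 (chromosome 14, 70303469 to 70351425, minus strand) encodes ZIP14, a broad importer of zinc, manganese and iron that is abundant in hepatocytes. It stood at 246, 241 and 235 CPM in the HFHC livers and at 171, 232 and 208 CPM in Chow replicates 7, 8 and 9. The HFHC libraries lay just above all Chow libraries, with 1.01 times between the nearest of them. The log2 fold change was 0.24 ± 0.11, and 0.13 without Chow replicate 7 or 0.35 without Chow replicate 8. In 4 libraries its estimated counts were not whole.

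Slc39a1 (chromosome 3, 90248172 to 90253612, plus strand), which encodes the plasma membrane importer ZIP1, stood at 73.5, 75.2 and 77.6 CPM in HFHC and at 69.5, 69.5 and 67.1 CPM in Chow. The groups did not overlap, but the difference was small (log2 fold change 0.14 ± 0.07). Its estimated counts were not whole in any of the 6 libraries, so reads may have been shared out between genes and the level is uncertain. After a correction for GC content and transcript length in every library, the log2 fold change was 0.06.

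Slc39a8 (chromosome 3, 135825279 to 135888572, plus strand) encodes ZIP8, the nearest relative of ZIP14 in the family and likewise a manganese and zinc importer. It stood at 35.1, 35.3 and 36.7 CPM in HFHC and at 45.4, 36.9 and 41.8 CPM in Chow. The HFHC libraries lay below all Chow libraries, again with almost no gap (1.004 times), and the log2 fold change was -0.21 ± 0.09. It was -0.09 after the GC and length correction, and -0.28 to -0.14 with a library left out.

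Slc39a5 (chromosome 10, 128395931 to 128401229, minus strand), an importer best known from pancreas and gut and also reported in liver, was close to the floor. It had 12, 41 and 10 counts in HFHC and 7, 8 and 13 counts in Chow. HFHC replicate 2 alone was high, and the other HFHC libraries overlapped Chow. The log2 fold change was 0.95 ± 0.57 and dropped to 0.05 without HFHC replicate 2. Of 7 pancreatic acinar markers 5 had no entry by symbol among the 20107 genes. Cela1 and Cela2a together held 25.1 to 40.6 CPM on HFHC against 27.2 to 36.4 CPM on Chow. HFHC replicate 2 held the lowest Cela1 level of the 6 libraries (24.9 CPM).

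The exporters gave modest differences. Slc30a1 (chromosome 1, 191906767 to 191913247, plus strand) encodes ZnT1, the plasma membrane zinc exporter and a target of the Mtf1 product. It stood at 43.5, 46.0 and 37.7 CPM in HFHC and at 62.6, 56.1 and 47.8 CPM in Chow. All HFHC libraries were below all Chow libraries, with 1.04 times between the nearest. The log2 fold change was -0.39 ± 0.11, with -0.48 to -0.29 when each library was left out in turn. Slc30a10 (chromosome 1, 185454848 to 185468762, plus strand), the manganese exporter, stood at 78.2, 79.7 and 67.1 CPM in HFHC and at 70.7, 76.0 and 64.7 CPM in Chow. Its groups overlapped (log2 fold change 0.09 ± 0.10). Antisense or opposite-strand genes cover 8.92% of the exonic bases of Slc30a1 and 9.13% of those of Slc30a10, and hold at most 1.81 CPM.

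**Figure D2:**
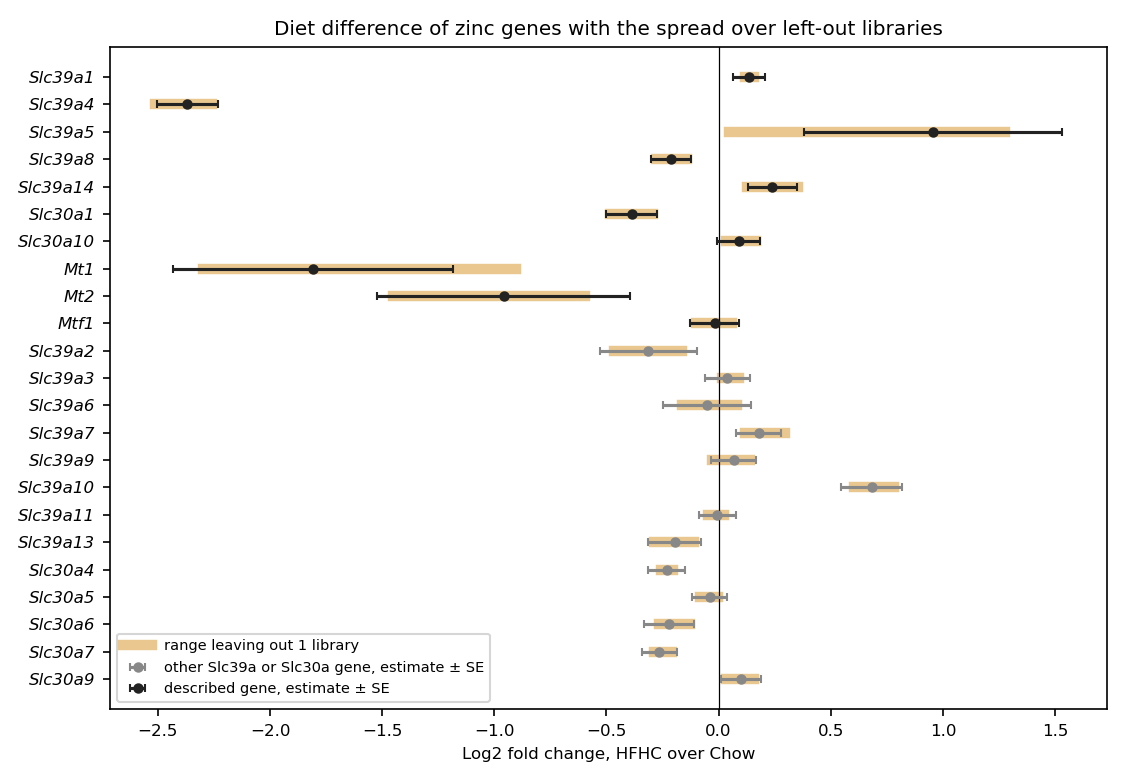
Log2 fold change of HFHC over Chow for the 10 genes (black) and for 13 other tested genes of the Slc39a and Slc30a families (grey), each with its SE; orange bars span the 6 fits that leave out 1 library. Slc39a4 sits at -2.37 with a narrow bar, Mt1 and Mt2 have wide bars, and most other family genes lie close to 0.

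The metallothionein genes lie next to each other on chromosome 8, Mt2 at 94172664 to 94173568 and Mt1 at 94179082 to 94180327 (plus strand), with 5513 bases between them. Mt1 stood at 3.75, 5.73 and 5.43 CPM in HFHC and at 15.5, 3.16 and 33.7 CPM in Chow replicates 7, 8 and 9. The groups overlapped, because Chow replicate 8 was the lowest of all 6 libraries while Chow replicates 7 and 9 were the highest. The means were 4.97 ± 1.07 CPM on HFHC against 17.5 ± 15.4 CPM on Chow, a log2 fold change of -1.81 ± 0.62. It moved to -2.30 without Chow replicate 8 and to -0.90 without Chow replicate 9. limma-voom, which averages log values, gave -1.26.

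Mt2 had the same order of high and low livers. It stood at 1.53, 2.50 and 2.35 CPM in HFHC and at 5.73, 0.725 and 5.96 CPM in Chow, and Chow replicate 8 was again the lowest library. The means were 2.12 ± 0.52 and 4.14 ± 2.96 CPM. The log2 fold change was -0.96 ± 0.56, with -1.45 without Chow replicate 8, -0.65 without Chow replicate 7, -0.60 without Chow replicate 9 and -0.47 by limma-voom. Counts were small, 196 in the 3 HFHC livers and 329 in the 3 Chow livers. The antisense gene Gm45774 covers 73.5% of the exonic bases of Mt2; it had 9 counts in all, 8 of them in 1 library.

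The proportion of the paired genes also varied. Mt1 counts were 2.36 ± 0.09 times those of Mt2 in HFHC, and in Chow the ratio ran from 2.71 to 5.66. The highest ratio was in Chow replicate 9, where Mt1 was high and Mt2 was close to its level in Chow replicate 7. Summed, the metallothioneins stood at 5.28 to 8.23 CPM in HFHC and at 3.88 to 39.7 CPM in Chow.

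Mtf1 (chromosome 4, 124802104 to 124849800, plus strand), the gene of the factor that drives them, was nearly level. It stood at 21.3, 23.1 and 19.0 CPM in HFHC and at 18.9, 23.4 and 21.9 CPM in Chow. The groups overlapped fully, with a log2 fold change of -0.02 ± 0.11 that changed sign between left-out libraries (-0.10 to 0.06). An opposite-strand gene at 9.69 to 13.7 CPM covers 8.09% of its exonic bases.

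At an adjusted p under 0.05, 6.67% of all tested genes were called in this comparison (3.38% higher and 3.3% lower in HFHC), and of the 10 genes Slc39a4 alone was past that line, as lower. The libraries of the diets did not overlap in 5 of the 10 genes (2 higher and 3 lower in HFHC), against 27.8% of all tested genes (13.5% higher and 14.3% lower). Since the genes were chosen with this contrast known, nothing is read from these counts. The median log2 fold change was -0.11 over the 10 genes and -0.0033 over all tested genes.

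The spread among livers on the same diet is a separate measure. Among the 3 Chow livers, Mt1 had an SD of 1.64 on the log2(CPM + 0.5) scale, and only 8 of 14895 other tested genes varied as much or more. Mt2 had an SD of 1.37, reached by 0.114% of all tested genes. In HFHC their SDs were 0.30 and 0.31, reached by 9.88% and 9.21% of tested genes. Slc39a1 was the steadiest of the 10 in Chow, with an SD of 0.03, and had 0.04 in HFHC. Slc39a8 and Slc39a14 had SDs of 0.03 in HFHC against 0.15 and 0.22 in Chow. Slc39a4 varied about as much on either diet, with SDs of 0.17 in Chow and 0.22 in HFHC, far below its step between the diets. The exporters and Mtf1 had SDs of 0.12 to 0.19 in Chow and 0.14 to 0.15 in HFHC. Slc39a5 spread more in HFHC (0.62 against 0.20 in Chow), through its single high library. With 3 livers per diet these SDs describe the libraries, and their difference between diets was not tested.

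**Figure D3:**
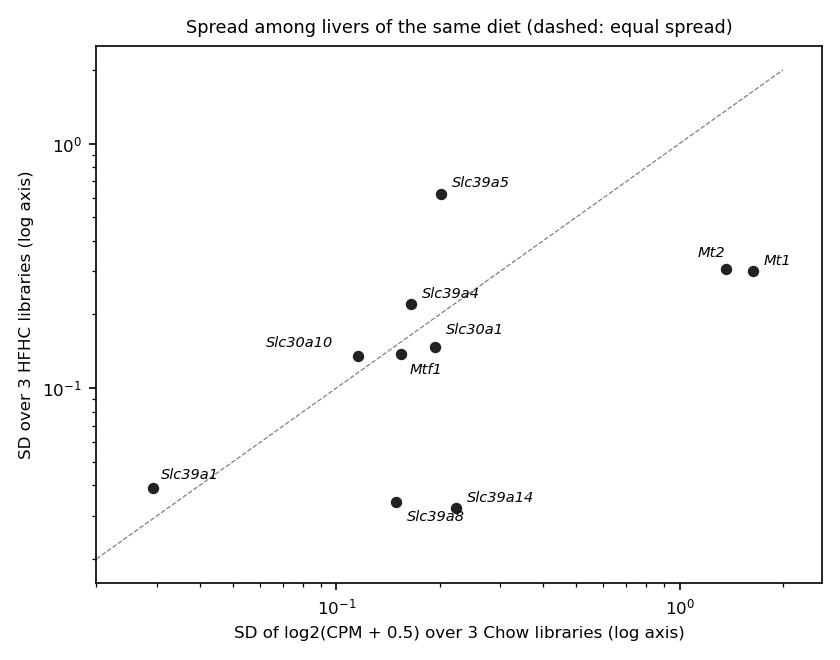
SD of log2(CPM + 0.5) over the 3 Chow libraries (x, log axis) and over the 3 HFHC libraries (y, log axis), with 1 point per gene and a dashed line of equal spread. Mt1 (1.64 against 0.30) and Mt2 (1.37 against 0.31) lie far to the Chow side, and Slc39a5 lies to the HFHC side.

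Likeness to Mt1 over all 6 libraries was measured as the root mean square difference of mean-centered log2(CPM + 0.5), among 9152 other genes with at least 5 CPM. The 5 nearest genes were Igfbp1 (0.46), Arl4d (0.50), Trp53inp1 (0.60), Neb (0.60) and Rasgef1b (0.68), and Mt2, which is under 5 CPM, was at 0.48. Igfbp1 stood at 14.9, 45.9 and 24.9 CPM in HFHC, so it and Mt1 shared a low Chow replicate 8 and a low HFHC replicate 1. Arl4d, which encodes a small GTPase, was low in the same libraries, with 14.0, 41.4 and 32.5 CPM in HFHC and 53.2, 15.6 and 80.2 CPM in Chow. Its lowest library was HFHC replicate 1, where Mt1 and Igfbp1 were lowest in Chow replicate 8.

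For Slc39a4 the 5 nearest genes were Gstp1 (0.23), Gstp-ps (0.27), Hsd17b6 (0.36), Gsta2 (0.37) and Slco1a4 (0.37), where Slc39a4 itself had a root mean square deviation of 1.16. Gstp1 encodes a glutathione transferase, and reads of Gstp1 and Gstp-ps may be shared between near-identical copies. Slco1a4, an organic anion transporter of the sinusoidal membrane, averaged 26.0 ± 6.04 CPM on HFHC and 124 ± 27.2 CPM on Chow. Each of these genes was, like Slc39a4, low in all HFHC livers, and this shared step between the diets enters the measure.

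**Figure D4:**
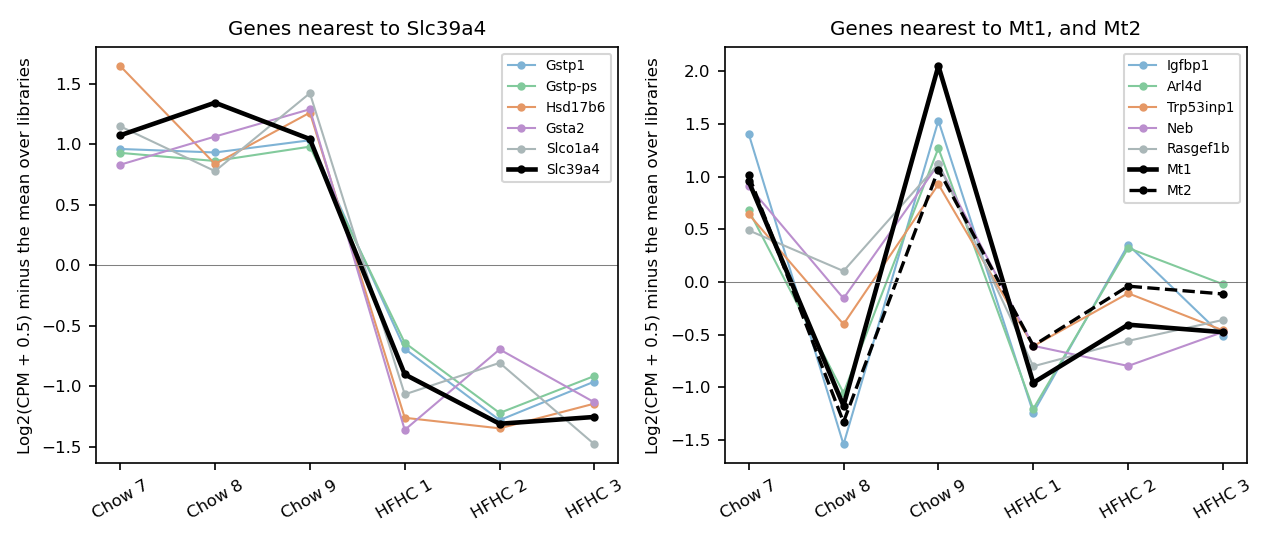
Mean-centered log2(CPM + 0.5) in each of the 6 libraries for Slc39a4 with its 5 nearest genes (left) and for Mt1 with its 5 nearest genes and Mt2 (right); lines join the values of 1 gene and imply no order of libraries. The Slc39a4 set steps down between diets, while the Mt1 set dips in Chow replicate 8.

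Levels were compared between genes per kilobase of exonic length. In Chow, Slc39a1 came first with 29.1 ± 0.59 CPM per kb, then Slc39a14 with 19.3 ± 2.93, Mt1 with 14.0 ± 12.3, Slc39a4 with 13.6 ± 1.63, Slc30a10 with 12.1 ± 0.97 and Slc30a1 with 10.6 ± 1.42 CPM per kb. Mt2 (7.04 ± 5.03), Slc39a8 (5.40 ± 0.56), Mtf1 (2.40 ± 0.26) and Slc39a5 (0.157 ± 0.06 CPM per kb) followed. Neighbours from Slc39a14 down to Slc39a8 overlapped in this order, while Slc39a1 was clear of Slc39a14, and Slc39a8 of Mtf1 and Mtf1 of Slc39a5. In HFHC, Slc39a1 (31.9 ± 0.87), Slc39a14 (22.8 ± 0.51), Slc30a10 (12.9 ± 1.18) and Slc30a1 (8.09 ± 0.82 CPM per kb) led, each clear of the next. Below them Slc39a8 (4.66 ± 0.11), Mt1 (3.99 ± 0.86), Mt2 (3.61 ± 0.89), Slc39a4 (2.63 ± 0.44) and Mtf1 (2.37 ± 0.23 CPM per kb) overlapped from neighbour to neighbour. Slc39a4 thus stood in place 4 in Chow and in place 8 in HFHC, and Slc39a5 was last on both diets. The order of Slc39a1 and Slc39a14 depends on the length used, since per kilobase of the longest transcript Slc39a14 came first in Chow (39.8 against 29.1 CPM per kb). By that length Slc39a8 also came above Slc30a1 in HFHC (8.48 against 8.09 CPM per kb). In Chow it came above Mt2 (9.82 against 8.10 CPM per kb). The place of Mt1 is uncertain for the same reason. Its annotated exonic bases form 1 block of 1246 bases that spans the whole gene, and a shorter spliced transcript would give a higher level per kb.

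Seen as shares of the summed CPM per kb of the 5 importers, Slc39a4 made up 19.9%, 21.6% and 18.9% in Chow replicates 7, 8 and 9, and 3.75% to 5.05% in HFHC. Slc39a1 and Slc39a14 had the larger shares in HFHC, with 51.2% ± 1.32 and 36.6% ± 0.88 in HFHC against 43.1% ± 2.36 and 28.5% ± 2.95 in Chow. Slc39a8 stayed at similar shares (7.48% ± 0.16 and 8.04% ± 1.26), and Slc39a5 was at most 0.949%. These shares depend on the length used. Per kilobase of the longest transcript, Slc39a14 was above Slc39a1 in HFHC (47.0 against 31.9 CPM per kb). In plain CPM the 5 importers summed to nearly the same total, 361 ± 3.71 CPM on HFHC against 356 ± 30.6 CPM on Chow. That sum is not scaled by length, and Slc39a14, the longest of the 5, was its main contributor. The importer Slc39a14 and the exporter Slc30a10 act on opposite sides of manganese balance, and the ratio of their CPM was 3.02 to 3.50 in HFHC and 2.42 to 3.21 in Chow, with overlap.

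**Figure D5:**
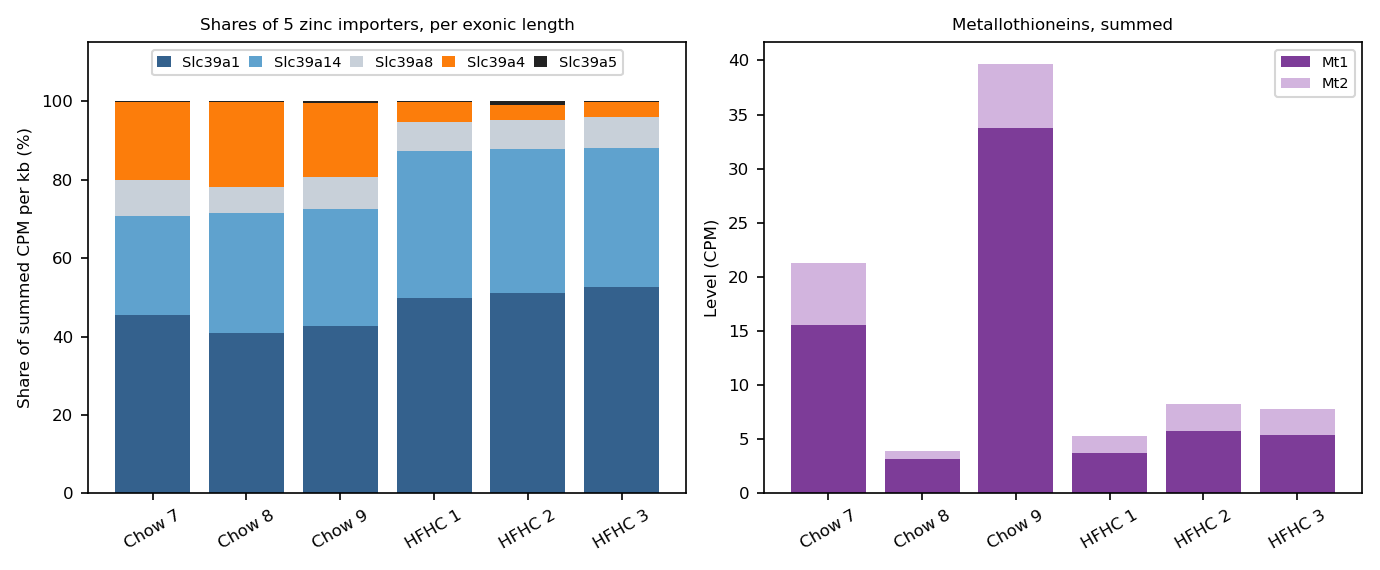
Left, share in percent of the 5 importers' summed CPM per kb of exonic length in each library; right, summed CPM of Mt1 and Mt2 in each library. The Slc39a4 share is 18.9% to 21.6% in Chow and 3.75% to 5.05% in HFHC, and the metallothionein sum is lowest in Chow replicate 8 (3.88 CPM) and highest in Chow replicate 9 (39.7 CPM).

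The other genes of the zinc transporter families were tested in the same fit. Over all tested genes 6.67% were called (3.38% higher and 3.3% lower in HFHC), which is the share to set beside each list below. Among 9 further Slc39a genes, 8 were tested and 1 rose, 7 did not pass and none was called lower by edgeR, DESeq2 or limma-voom or at an unadjusted p under 0.05 in edgeR. The gene that rose was Slc39a10, which encodes ZIP10, an importer whose transcription the Mtf1 product is known to repress. It stood at 7.09, 7.97 and 6.47 CPM in HFHC and at 4.02, 5.01 and 4.37 CPM in Chow, so all 3 HFHC livers were above all Chow livers. The log2 fold change was 0.68 ± 0.14 (edgeR adjusted p = 0.0198). The call was lost without HFHC replicate 1 (adjusted p = 0.0598) or 2 (0.0708) and without Chow replicate 7 (0.0853) or 9 (0.0696).

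The more abundant Slc39a7, an importer of the endoplasmic reticulum, had 105 ± 3.95 CPM on HFHC against 92.5 ± 11.9 CPM on Chow and did not pass (0.18 ± 0.10, adjusted p = 0.333). Another annotated gene on the same strand covers 80.7% of its exonic bases, so its level is uncertain. The median log2 fold change of the 8 tested genes was 0.02.

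Of 8 further Slc30a genes 5 were tested, and edgeR called none of them. At an unadjusted p under 0.05 in edgeR, 2 were lower, and DESeq2 and limma-voom called 0. The share of all tested genes at that unadjusted line is not given here, so nothing is read from the unadjusted count. Slc30a7, which loads zinc into the early secretory pathway, stood at 26.4, 29.4 and 29.2 CPM in HFHC and at 34.0, 33.4 and 34.7 CPM in Chow, without overlap (-0.26 ± 0.08, edgeR adjusted p = 0.0783). Slc30a4, a vesicular transporter, stood at 16.1 ± 0.50 and 18.9 ± 0.74 CPM (-0.23 ± 0.08, adjusted p = 0.140). After the GC and length correction these values were -0.05 for Slc30a7 and -0.09 for Slc30a4. Slc30a6, also a transporter of the secretory pathway, had all HFHC livers below all Chow livers (-0.22 ± 0.11, adjusted p = 0.285). Slc30a5 (-0.04 ± 0.08, adjusted p = 0.822) and Slc30a9 (0.10 ± 0.09, adjusted p = 0.570) differed by about their error. The median log2 fold change of the 5 tested genes was -0.22.

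Beyond the transporters, 5 zinc or Mtf1 responsive genes were tested, and 1 fell. Ndrg1, a stress-response gene, stood at 13.5, 9.25 and 8.85 CPM in HFHC and at 37.3, 15.2 and 24.1 CPM in Chow, with Chow replicate 8 again the lowest Chow liver (-1.28 ± 0.29, edgeR adjusted p = 0.0334). That call was lost without HFHC replicate 2 (adjusted p = 0.102) or 3 (0.106) and without Chow replicate 7 (0.0883) or 9 (0.0717). The other 4 did not pass, where 6.67% of all tested genes were called.

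Genes that handle other metals were read in the same way, beside 6.67% of all tested genes called after adjustment. The share of all tested genes at an unadjusted p under 0.05 in edgeR is not given here, so nothing is read from the unadjusted counts. Of 10 copper handling genes 3 were higher at an unadjusted p under 0.05 and 1 rose after adjustment, the copper chaperone gene Atox1, from 37.2 ± 1.93 to 47.9 ± 1.24 CPM (0.37 ± 0.07, edgeR adjusted p = 0.0215). The call of Atox1 did not survive without HFHC replicate 1 (adjusted p = 0.0567) or 2 (0.0603) and without Chow replicate 7 (0.106) or 9 (0.0503). Nor did it survive the GC and length correction (0.0735). Of 8 iron and manganese transport genes edgeR, DESeq2 and limma-voom called 0, and 2 were lower at an unadjusted p under 0.05 in edgeR. The smallest p in that list belonged to Tfrc, the transferrin receptor gene, with 26.0 ± 4.06 CPM on HFHC against 45.1 ± 23.6 CPM on Chow (-0.80 ± 0.33, adjusted p = 0.185).

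Among 16 zinc-binding proteins and zinc enzymes of liver, 1 fell and 15 did not pass, close to the 6.67% called over all tested genes. Car14, a membrane carbonic anhydrase, fell from 41.9 ± 5.98 to 27.3 ± 0.55 CPM (-0.62 ± 0.10, edgeR adjusted p = 0.00995). A protein-coding gene on the opposite strand covers 17.5% of its exonic bases. How strand was counted is not given, so the level of Car14 is uncertain.

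Responses known to act on Mt1, Mt2 and Slc39a14 were read from 2 further lists. Of 17 interleukin 6 and STAT3 response genes 1 rose and 1 fell: Saa2, an acute phase protein gene, with 22.8 ± 1.36 CPM on HFHC against 7.04 ± 0.45 CPM on Chow (1.70 ± 0.10, edgeR adjusted p = 4.53e-05), and Lbp at 39.2 ± 5.45 and 62.9 ± 3.70 CPM (-0.68 ± 0.11, adjusted p = 0.00770). Saa2 had estimated counts that were not whole in any library, so reads may have been shared with its near copies and its level is uncertain. Of 10 glucocorticoid response genes 1 fell, Tat, the tyrosine aminotransferase gene, from 1625 ± 406 to 812 ± 32.9 CPM (-1.002 ± 0.154, edgeR adjusted p = 0.00673). Medians were -0.14 for the interleukin 6 list and -0.13 for the glucocorticoid list, beside -0.0033 over all tested genes, of which 6.67% were called.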

How the data were processed

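Per the labels, RNA from 6 livers was extracted with the miRNeasy kit and made into TruSeq stranded, rRNA-depleted libraries. The submitters' processing notes name STAR 2.7.3a, Partek 9 and mm10. The values deposited by the authors are estimated counts (expected counts) per gene that were made without normalization, and 21.1% of them were not whole (tolerance 0.01). How strand was counted, and with which annotation, is not given in the sources used here.

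Counts were rounded, filtered with filterByExpr (minimum count 10) and fitted with edgeR 4.0.16 (TMM, quasi-likelihood F test, Benjamini-Hochberg over all 14896 tested genes, threshold 0.05) in R 4.3.3. The SE is the log2 fold change divided by the square root of F. Coordinates, exonic lengths and overlaps come from GENCODE M21 (19977 of 20107 genes matched). Of the deposited gene ends, 19892 lie 1 base past GENCODE, and GENCODE's ends are printed. No promoter window on chromosome 18 was used. The floor covers counting error only. Littermates were labelled as separate animals, and each p-value judges the diet difference against the estimated spread between them.

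The 10 genes and all lists were chosen with earlier results of these data known. All 10 genes and any tested Slc39a or Slc30a gene could be named. From other lists, up to 3 called genes in the main direction and 1 in the other were named, or the gene with the smallest p; nearest patterns were the 5 closest genes. The alternatives tried were DESeq2 1.42.0, limma-voom (limma 3.58.1), 2 further kinds of size factor, a looser and a stricter filter, removal of the 10 most abundant genes, a GC and length correction (mgcv 1.9.3) and each library left out. On simulated data with 14896 genes the fit called 39 of 67 genes that had been altered 1.5-fold. It called 60 of 67 altered 2-fold and 63 of 66 altered 4-fold, with 6 false calls among 168. Each simulated gene was given the fitted trend of spread at its level, with no spread of its own and no outlying library. These rates therefore do not cover genes that spread as widely as Mt1 and Mt2 did among the Chow livers.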

Additional observations from a re-analysis of the deposited data

How the results depend on the processing

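Slc39a4 had log2 fold changes of -2.51 to -2.26 over the 14 alternatives, and the number of the 10 genes past the threshold was 1 in 12 of them, 2 with DESeq2 (with Slc30a1) and 3 without Chow replicate 8 (with Mt1 and Mt2). Nothing is read from these counts either, since the genes were chosen with this contrast known. Mtf1 changed sign in 4 alternatives and no other of the 10 genes did. Leaving out 1 library gave 207 to 527 genes called higher and 154 to 553 called lower, against 503 and 491. It gave 0 to 1 further Slc39a importers called higher. Over the remaining lists (66 genes, 2 higher and 4 lower in the reported fit), leaving out 1 library gave 1 to 2 higher and 3 to 5 lower, DESeq2 gave 4 higher (with Bhmt and Lcn2) and the GC and length correction 1. The cause of these shifts was not tested. No paired analysis was possible because the diets share no replicate number. Depth limits Slc39a5 most: its log2 fold change rests on 63 and 28 counts, and the stricter filter of 50 counts in 3 samples removed it.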

Other observations

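The 8 genes that varied at least as much as Mt1 among Chow livers, picked out after their values were seen, fall into groups by which liver was extreme. Cish, the feedback inhibitor induced by growth hormone and STAT5, stood at 6.41, 54.8 and 2.45 CPM in Chow replicates 7, 8 and 9. Onecut1 (19.2, 126 and 10.5 CPM), Foxq1 (6.56, 62.0 and 6.83 CPM) and Serpina4-ps1 (32.1, 264 and 28.2 CPM) were likewise highest in Chow replicate 8, the liver where Mt1 was lowest. Igfbp1, a secreted binding protein of insulin-like growth factors that insulin represses, went the other way with 95.8, 11.97 and 104 CPM. The retinoic acid hydroxylases Cyp26a1 (54.1, 3.66 and 19.5 CPM) and Cyp26b1 (6.45, 0.181 and 8.56 CPM) were also lowest in Chow replicate 8. Slc15a2 was instead lowest in Chow replicate 9, at 0.226 CPM. The part of these differences in the metallothionein values was not tested.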
